A study of Mus musculus with 6 samples.

Results

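The genes described here encode the proteins of the cytosolic ribosome in mouse. They were chosen by symbol: protein-coding genes of the RefSeq table of the assembly GRCm38.p6 named Rpl or Rps with a number, together with Rpsa, without the Rps6k kinases and Rps19bp1. The choice used no measured value. It gave 87 genes of 21887 protein-coding genes, after the 13 mitochondrially encoded genes among 21900 were left out. Of the 87, 74 are the canonical ribosomal protein genes, 31 of the small and 43 of the large subunit, and 13 are paralogues or retrogenes. Peaks from different lists were joined into 1 region where they overlapped by 1 bp or more, and a region was assigned to a gene when it overlapped the gene or the 2 kb on either side. That gave 151 regions of 81315, of which 96 met the start of a gene of the set and 40 met no protein-coding start.

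Chromatin accessibility was measured by ATAC-seq, which uses the Tn5 transposase to insert adapters into open DNA, from 10000 lysed cells a library. Cells were CD4 T cells of C57BL/6 mice, in 3 groups with 2 libraries each. Naive cells were untreated. Th17 cells were grown from naive CD4 T cells for 48 h or 72 h with 0.25 μg/mL anti-CD3ε, 1 μg/mL anti-CD28, 0.1 ng/mL TGF-β and 20 ng/mL IL-6. The peak names in all 3 lists carry the text WT_Ddx5, and the labels used here give no genotype beyond the strain. Each group has 1 peak list, so no value has a replicate and no difference between groups could be tested. The labels and files do not state the read depth, or whether a list holds 1 library or both.

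The ribosome is built from a small subunit, which decodes messenger RNA, and a large subunit, which joins amino acids. Its proteins are made in matched amounts from genes scattered over the chromosomes, nearly all of them active in every cell. Many of their promoters lack a TATA box, carry sites for ETS-family factors such as GABP, and start transcription at a C within a pyrimidine tract, the TOP motif through which growth signals control translation of the transcripts. T cells that leave the naive state grow and make more ribosomes.

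The lists held 53259 peaks in naive cells, 40624 at 48 h and 53926 at 72 h, with median widths of 273, 234 and 239 bp. All 8 T cell marker genes had a region in every list. The Th17 genes Il17a and Il17f had no region in naive cells and 2 and 1 at 72 h. Of 6 B cell markers, Cd79b and Ms4a1 had no region in any list, and the list summed to 5, 4 and 5 regions. Of 6 myeloid markers, Csf1r, Lyz2 and Adgre1 had none in any list, while the list summed to 13, 4 and 5 regions in naive, 48 h and 72 h cells. The part of other cells in the values below was not tested.

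Start sequences are printed for 8 genes to show the promoters at the ends of the range of start peak scores, and without a start peak: the 4 with the highest and the 2 with the lowest start peak score at 72 h among those that have a listed start, and 2 paralogues without a start peak, these last chosen after their values were seen. Each runs from 120 bases before to 15 bases from the RefSeq start (GRCm38.p6), 5′ to 3′ on the gene's strand. Capitals mark ETS matches, CCGGAAG or CGGAAGT on either strand, and TOP-like stretches, meaning at least 5 pyrimidines in a row of which the first is a C within 10 bases of the start on the gene's strand. The C nearest the start was taken, so other pyrimidines may stand before the capitals. A match cut by the edge is in lower case.
Rpl36al, chr12:69184053-69184187, minus strand: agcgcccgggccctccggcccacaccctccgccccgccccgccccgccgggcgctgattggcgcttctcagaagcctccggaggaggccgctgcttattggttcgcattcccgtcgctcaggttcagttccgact
Rps21, chr2:180257259-180257393, plus strand: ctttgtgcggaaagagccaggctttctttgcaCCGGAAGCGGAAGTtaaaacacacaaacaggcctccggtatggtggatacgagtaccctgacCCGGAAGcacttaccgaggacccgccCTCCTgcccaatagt
Rpl34, chr3:130730384-130730518, minus strand: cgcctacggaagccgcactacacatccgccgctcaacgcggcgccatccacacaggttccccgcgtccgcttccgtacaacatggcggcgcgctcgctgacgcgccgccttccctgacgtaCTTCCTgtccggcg
Rpl37, chr15:5116493-5116627, plus strand: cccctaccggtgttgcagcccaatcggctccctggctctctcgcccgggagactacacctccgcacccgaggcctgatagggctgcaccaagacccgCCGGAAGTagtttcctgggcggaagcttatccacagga
Rpl24, chr16:55966155-55966289, plus strand: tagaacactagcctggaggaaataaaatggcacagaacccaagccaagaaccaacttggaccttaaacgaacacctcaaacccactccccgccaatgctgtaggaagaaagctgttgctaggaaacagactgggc
Rpl18, chr7:45717951-45718085, plus strand: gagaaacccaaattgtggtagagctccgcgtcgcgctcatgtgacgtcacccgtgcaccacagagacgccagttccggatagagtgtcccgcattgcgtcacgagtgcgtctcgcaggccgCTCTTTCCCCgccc
Rpl39l, chr16:10170108-10170242, plus strand: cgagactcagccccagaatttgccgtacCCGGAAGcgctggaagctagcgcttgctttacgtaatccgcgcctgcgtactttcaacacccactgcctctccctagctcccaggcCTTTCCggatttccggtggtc
Rpl3l, chr17:24727706-24727840, plus strand: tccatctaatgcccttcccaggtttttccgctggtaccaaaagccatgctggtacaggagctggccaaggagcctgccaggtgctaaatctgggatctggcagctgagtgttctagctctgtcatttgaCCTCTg
In Rps21, which encodes a small subunit protein, CCGGAAG stands at both 88 and 26 bases before the start, and a C at the start itself opens a stretch of 5 pyrimidines, which other pyrimidines precede. In Rpl37 overlapping matches begin 23 and 22 bases before the start. Rpl39l, a paralogue of Rpl39, has CCGGAAG 92 bases before its start and a marked stretch of 6 pyrimidines that another pyrimidine precedes, and no list had a peak at that start.

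Nearly every canonical gene had a peak at its start in all 3 lists. A start peak is one that comes within 500 bp of a listed start or, for the 20 genes without one, of either end of the gene. Of the 87 genes, 78 (89.7%, exact Clopper-Pearson 95% interval 81.3% to 95.2%, counting error only) had a start peak in each list. The background was 48.3% of all protein-coding genes. No gene of the set had a start peak in some lists only, whereas 82.8% of protein-coding genes with any start peak had it in all 3. This rests on the lists as deposited: when peaks under the median width of each list were left out, 77, 70 and 76 genes kept a start peak in naive, 48 h and 72 h cells and 70 in all 3. When 48 h and 72 h peaks under the median score were left out, the counts were 78, 67 and 77, with 67 in all 3. The shares of all protein-coding genes under these filters are not given, so the filtered counts stand without a background.

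All 31 small subunit genes had a start peak in every list, and so did 42 of 43 large subunit genes. The exception was Rpl17, which has no listed start. Its region lay inside the gene, away from either end, with widths of 759 bp in naive cells, 190 bp at 48 h and 569 bp at 72 h. It was thus present in all 3 lists but outside the window.

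The same held for other genes of protein synthesis. Of the genes for mitochondrial ribosomal proteins 77 of 78 had a start peak in all lists, of ribosome biogenesis genes 47 of 48, of translation elongation and other TOP genes 22 of 23, and of a further list of cytosolic ribosome genes 6 of 6. In each of these lists the remaining genes had no start peak in any condition. The constancy of the start peak therefore did not set the cytosolic ribosomal genes apart from these groups.

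The paralogues and retrogenes divided into 2 kinds. Rpl7l1, Rpl22l1, Rpl36al, Rps27l and Rpl34-ps1 had a start peak in each list, 5 of 13 (38.5%, interval 13.9% to 68.4%). The other 8 had none: Rpl10l, Rpl39l and Rpl3l, paralogues known from testis or striated muscle, and Rpl31-ps12, Rpl32l, Rpl37rt, Rps23rg1 and Rps27rt. Rpl10l, Rpl31-ps12, Rpl32l, Rpl39l and Rps27rt had no region at all. Rpl3l had 2 regions beyond its far end, both within reach of the start of the neighbouring gene Msrb1. Rpl37rt had 1 narrow region inside the gene, of 106 bp in naive cells and 118 bp at 48 h, and Rps23rg1 had 1 of 128 bp at 72 h only. Retrogenes are close copies of their parent genes, and the labels and files do not state how reads that match several copies were placed, so an absent peak at a copy is uncertain. Pseudogenes were counted by regions overlapping the pseudogene itself, without the 2 kb on either side. Of 296 named as Rpl or Rps copies, 1 had such a region (0.338%), against 290 of 9955 pseudogenes of all kinds (2.91%). Their lengths were not compared.

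**Figure D1:**
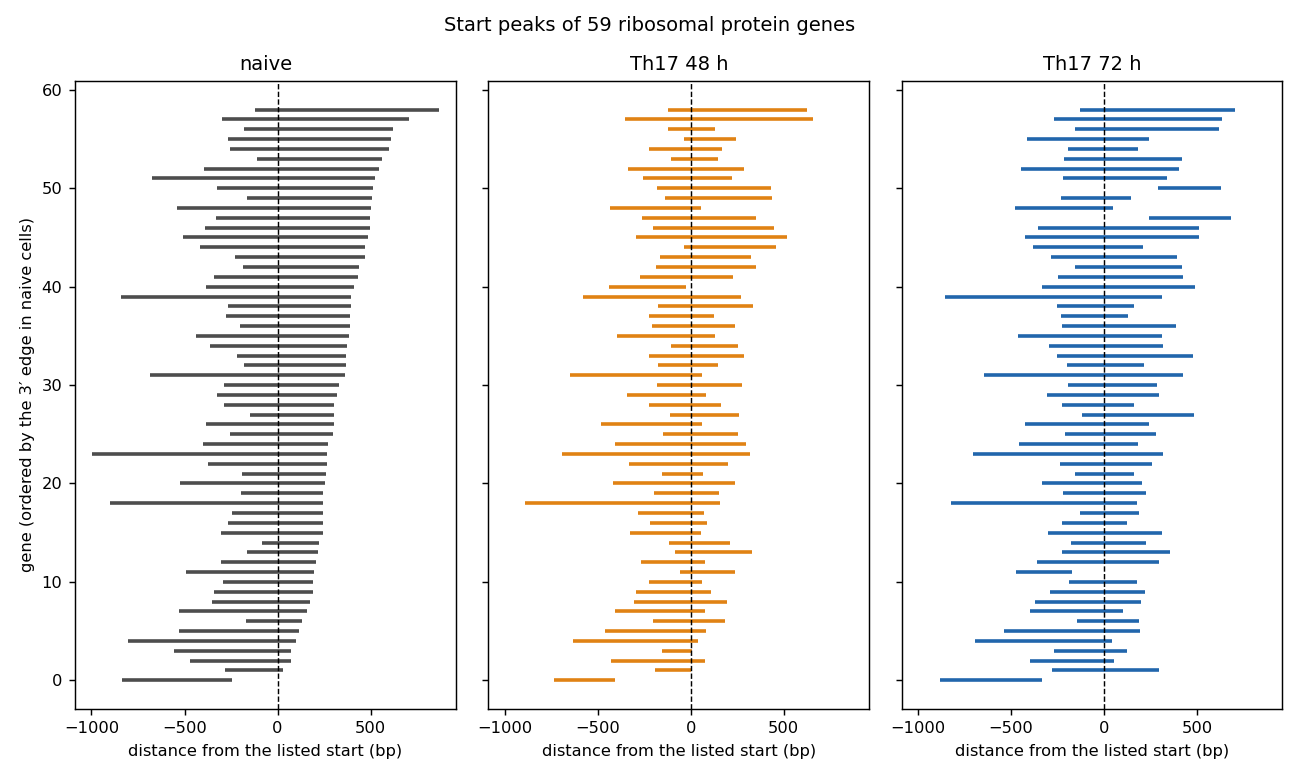
Extent of the widest start peak of the 59 genes with a listed start and a peak, 1 line per gene in the same order in the 3 panels; the x axis is the distance from the listed start in bp, the dashed line the start. Most lines cross the start in each list: 58, 57 and 55 of 59.

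The widest start peak covered the listed start itself in 58 of 59 genes in naive cells, 57 at 48 h and 55 at 72 h. The widest peak of Rpl4 lay off its start in all 3 lists. The Rpl4 start lies beside that of Zwilch, and 2 separate regions meet it. The region with the narrower peaks, of 406, 293 and 382 bp, spans the Rpl4 start and was in all 3 lists. At 72 h Rps26, Rps3a1 and Rps7 had their widest peak to 1 side, and each had 2 peaks within a single merged region there. The median naive peak ran from 324 bp before to 318 bp after the start, that at 48 h from 226 bp before to 196 bp after, and that at 72 h from 270 bp before to 260 bp after.

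Start peaks were widest in naive cells and narrowest at 48 h. The median width over the 78 genes was 675 bp in naive cells, 480.5 bp at 48 h and 576 bp at 72 h. Over the 10562 protein-coding genes with a start peak in all lists the medians were 750.5, 537 and 661 bp, so the same order held for genes in general. The order naive, 72 h, 48 h held within 45 of the 78 genes, and 60 were wider at 72 h than at 48 h. Only 6 of 78 were wider at 48 h than in naive cells, and 17 were wider at 72 h than in naive cells. Among all genes those shares were 16.6% and 30.9%. Width depends on depth and on the calling, which are unknown here.

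Small and large subunit genes had medians of 664 and 673.5 bp in naive cells, 494 and 407 bp at 48 h, and 562 and 563 bp at 72 h, so the largest gap between the subunits was at 48 h. The ranges between the quartiles overlapped there, at 392 to 618 bp and 324 to 534.75 bp, and the gap was not tested. The 5 paralogues with a peak had medians of 995, 812 and 935 bp, with Rpl34-ps1 the narrowest at 293, 100 and 102 bp. Rpl34-ps1 has no listed start, so its peak was taken at a gene end.

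**Figure D2:**
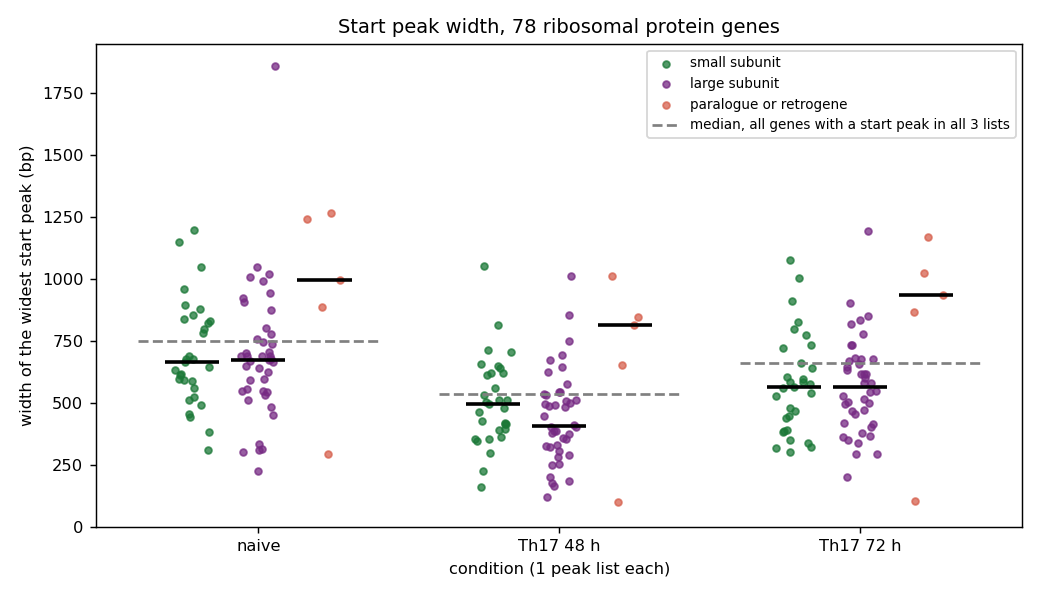
Width in bp of the widest start peak of each of 78 genes (points) by condition, coloured by subunit; black bars are group medians and dashed lines the median of all genes with a start peak in all 3 lists. The subunit medians lie below the dashed lines in each list, at 664 and 673.5 bp against 750.5 bp in naive cells.

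Single genes departed from this order. Rpl12, in the stalk base of the large subunit, had 312 bp in naive cells, 199 bp at 48 h and 579 bp at 72 h, a ratio of 72 h to naive of 1.86. The X-linked small subunit gene Rps4x had 382, 416 and 583 bp, a ratio of 1.53. The widest peak of both was that at 72 h. Rpl13, with 452, 374 and 600 bp, Rpl24, with 308, 329 and 404 bp, and Rps16, with 512, 346 and 661 bp, had ratios of 1.33, 1.31 and 1.29. The lowest ratios were those of Rpl32 (921, 183 and 292 bp, 0.317) and Rpl34-ps1 (0.348). They were followed by Rps7 (836, 612 and 339 bp, 0.406), Rps26 (689, 297 and 301 bp, 0.437) and Rps10 (855, 395 and 382 bp, 0.447). In 5 of these genes the start region was divided into peaks differently in the lists, so the ratio of the widest peaks compares part of a region with the whole. Rpl32, Rps7 and Rps26 had 1 naive peak and 2 at 72 h in the region, and Rpl12 and Rps4x had 2 naive peaks and 1 at 72 h. The other 5 had 1 peak in that region in both lists.

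The authors' score, given for 48 h and 72 h only and with no stated scale, placed these start peaks below the middle of all start peaks at 48 h and near it at 72 h. It is compared only within a list. The median score was 113.5 at 48 h and 189.5 at 72 h, against 137 and 198 over all genes. As a percentile among all start peaks of the list, the median was 41.0 at 48 h and 53.4 at 72 h, against 53.4 and 56.3 for all genes with a start peak in every list. At 48 h, 26 of 78 genes were above the median of all genes and 23 below its lower quartile. At 72 h, 36 of 78 genes were above the median of all genes, 10 above its upper quartile and 16 below its lower quartile.

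The highest score at 72 h was that of Rpl36al, a paralogue of Rpl36a, at 397, with 260 at 48 h and widths of 1242, 847 and 1168 bp. Its start region also holds the start of Mgat2. Rps21 followed at 363 (186 at 48 h, widths 780, 657 and 541 bp) and Rpl34 at 337 (209 at 48 h, widths 778, 497 and 675 bp). Rpl37 had 328, with 193 at 48 h and widths of 688, 543 and 669 bp. Rps29 had 314, Rpl15 and Rps19 303 each, Rpl27 297 and Rpl22l1, the paralogue of Rpl22, 283.

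The lowest scores at 72 h were those of Rpl34-ps1 at 60, Rpl24 at 79, Rpl18 at 82 and Rps4x at 85, followed by Rpl23a and Rps15a at 99. At 48 h these were 37, 80, 48, 69, 55 and 118. Low and high scorers included both subunits.

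**Figure D3:**
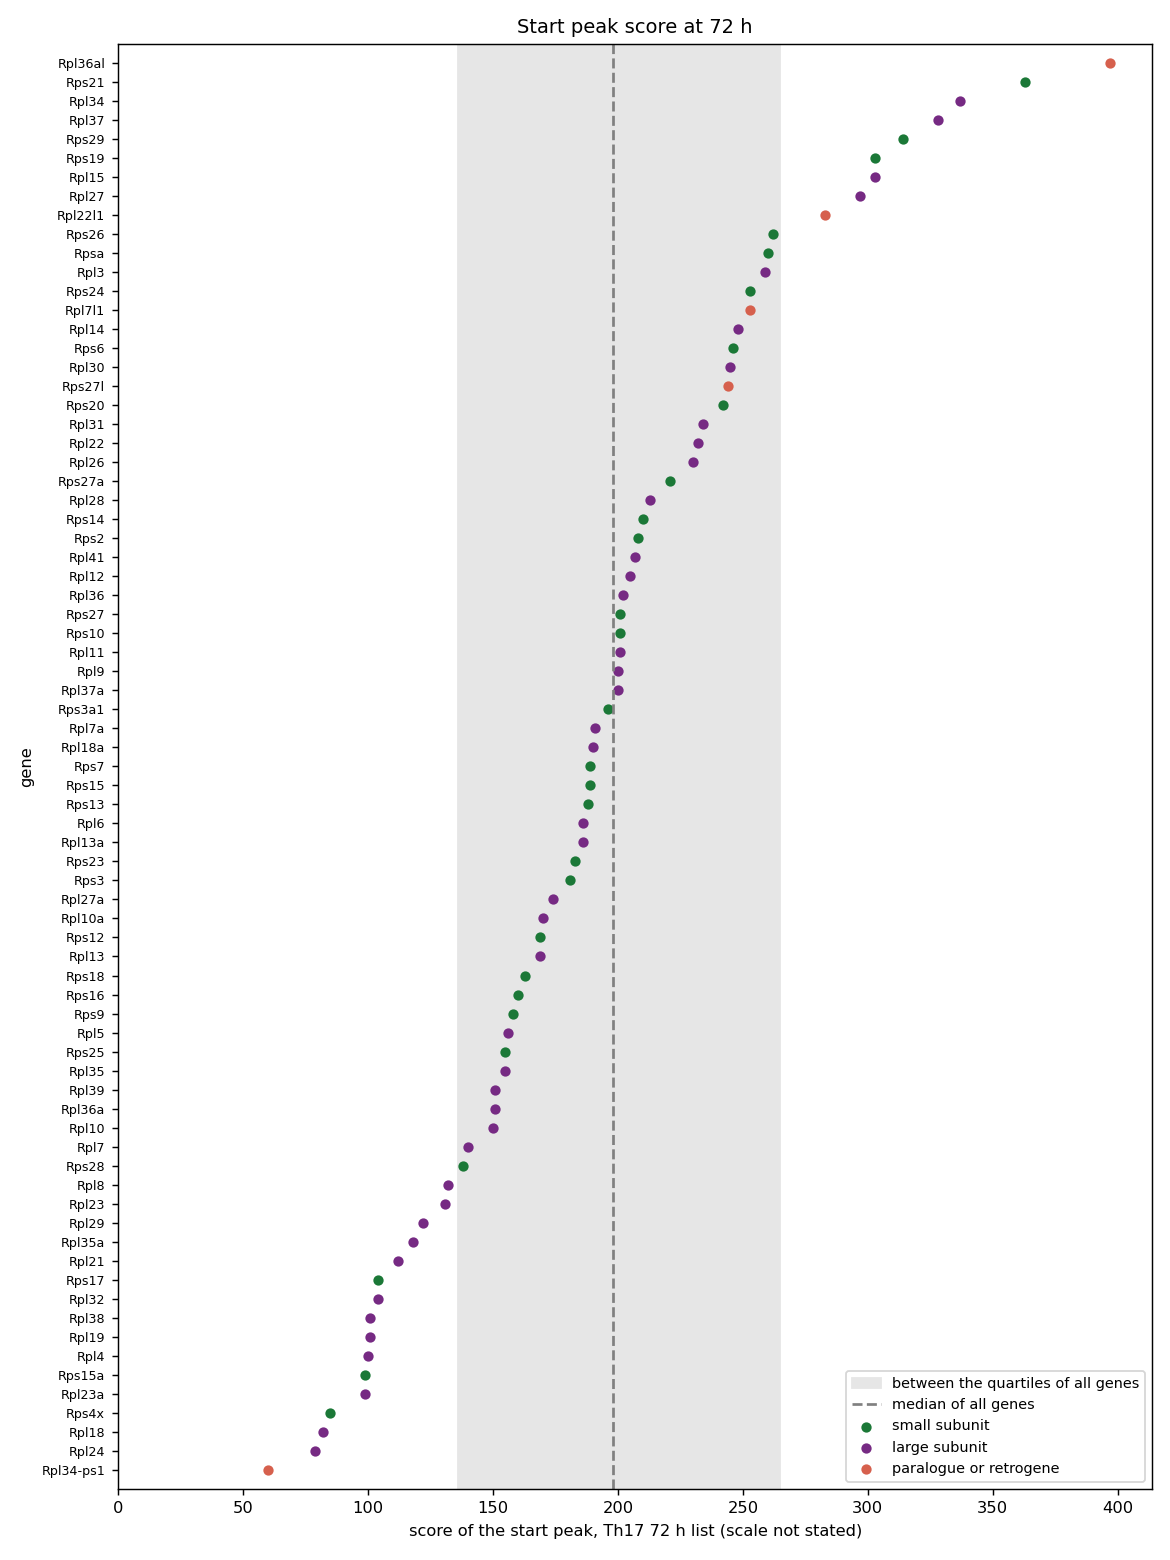
Score of the start peak in the 72 h list (x axis, scale not stated) for 75 of the 78 genes in order (y axis), coloured by subunit, with the middle range between the quartiles of all genes shaded and their median dashed. Rpl36al at 397 and Rpl34-ps1 at 60 are the ends.

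Some start regions were shared with a neighbour. In 16 of the 78 genes (20.5%, interval 12.2% to 31.2%) the start region also met the start of another protein-coding gene, against 20.2% of all genes with a constant start peak. Pairs included Rps18 with Vps52, Rpl7a with Med22, Rps27 with Rab13 and Rpl12 with Lrsam1. In such pairs a peak cannot be assigned to either gene.

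The promoters shared features that the choice of genes did not use. RefSeq promoters, 250 bases before to 50 after a start, were at hand for 67 of the 87 genes and for 17492 protein-coding genes, and some genes have more than 1 listed start. An ETS match (CCGGAAG or CGGAAGT, overlapping by design, both strands) was found in 33 of 67 (49.3%, interval 36.8% to 61.8%) against 15.8% of all genes. CCGGAAG lay at a median of 59 bases before the start. Both strings hold a CG, and the promoters had a median of 7 CG per 100 bases, against 4.33 in all genes. Their median G and C content was 56.7%, against 56.3%. The part of base composition in the ETS share was not tested. The TOP-like stretch was found in 41 of 67 (61.2%, interval 48.5% to 72.9%) against 34.9%. It was about as frequent in the canonical genes, 33 of 55 (60%), as in the paralogues and retrogenes, 8 of 12 (66.7%). Such a stretch with its first C exactly at the listed start base, whatever base precedes it, was found in 14 (20.9%) against 2.67%, a count added after the values were seen.

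Other motifs were counted in the same way. AAGATGG, a YY1 core that holds the ATG, was found in 10 genes (14.9% against 7.18%), GGGCGG, the SP site, in 38 (56.7% against 49.2%) and TATAAA in 8 (11.9% against 14.8%), both strands in each case. On the gene's strand alone, GGGCGG was below the background, at 26.9% against 33.6%. A match is a string of letters, not a bound site. The median score at 72 h was 198 over 32 genes with an ETS match and 186 over 27 without, with overlapping ranges of 79 to 397 and 82 to 303. The genes were also short, with a median length of 3164 bp against 17169 bp, and 29 of 87 (33.3%) had a snoRNA gene inside, against 1.70% of all protein-coding genes. Rpl4 held 5, and Rpl13a and Rpl7a were among those that held 4.

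Regions came and went mainly away from starts. Gained and lost mean present in 1 list and absent from another. Of the 151 regions 94 were in all 3 lists (62.3%), against 25.6% of all regions. From naive to 48 h, 10 of 116 regions were gained and 23 of 129 lost, against backgrounds of 38.8% and 55.9%. From naive to 72 h, 13 of 113 were gained and 29 of 129 lost, against 49.2% and 49.2%. From 48 h to 72 h, 18 of 113 were gained and 21 of 116 lost, against 39.4% and 15.9%.

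Regions at starts of any gene are the closer background, since 96 of the 151 regions met the start of a ribosomal gene. Of the 55 others 13 were in all lists, and 40 of the 55 met no protein-coding start. At starts of the ribosomal genes 81 of 96 regions were in all lists (84.4%, interval 75.5% to 91.0%), against 70.6% at starts of any gene. The other 15 were at genes that also had a constant start region, and none was found at 48 h only. From naive to 48 h no start region was gained, 0 of 84 with an exact interval up to 4.30%, and 9 of 93 were lost, against 9.05% and 16.5% at starts of any gene. From naive to 72 h, 3 of 87 were gained and 9 of 93 (9.68%) lost, against 13.9% and 12.5%. From 48 h to 72 h, 6 of 87 were gained, against 13.2%. In that step 3 of 84 were lost (3.57%), near the 3.97% at starts of any gene.

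Away from every start, 4 of 40 regions were in all lists (10%, interval 2.79% to 23.7%), which is near the 15.9% of such regions in general. Of these 40, 11 were in the naive list only, 7 in naive and 48 h, 7 at 48 h only, 8 at 72 h only, 2 in naive and 72 h and 1 at 48 h and 72 h. Regions absent from the 72 h list but present at 48 h thus made up 14 of 40. Among all regions away from starts the shares in naive and 48 h and at 48 h only were 2.83% and 5.37%, against 17.5% each here. The shares in the naive list only, at 72 h only and in naive and 72 h were nearer, at 33.0%, 20.8% and 7.31%, against 27.5%, 20% and 5% here. That at 48 h and 72 h was 14.8%, against 2.5% here.

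**Figure D4:**
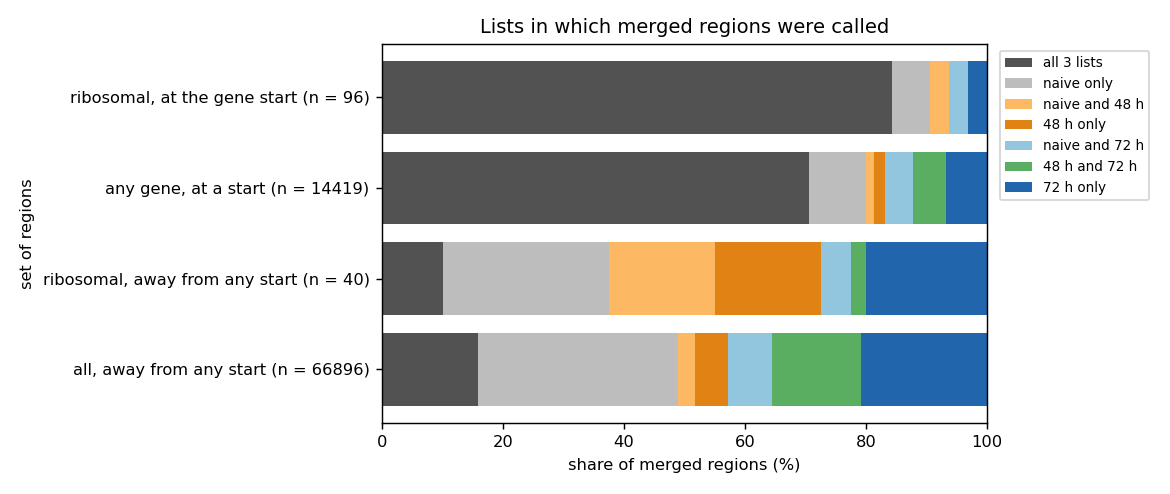
Share of merged regions (x axis, percent) by the lists in which they were called, for ribosomal regions and all regions at starts and away from any start; n is the number of regions. In the ribosomal regions away from starts, 7 of 40 were in naive and 48 h and 7 at 48 h only.

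Many of these regions lay past the 3′ end of the gene. This was noticed while reading the regions away from starts, and both the pattern and its definition were chosen after the values were seen, in the genes where it was seen; it is a description only. Counts were made over the 78 genes and over 10501 protein-coding genes with a start peak in all lists and a known direction, leaving out peaks that met any protein-coding start. For genes without a listed start, the end that held a peak in all lists was taken as the start, which rests on the same peaks. In all, 4 windows on 2 sides of the gene were counted, and the first 2 kb are given first because the assignment of regions already used that distance.

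In the 2 kb past the 3′ end, 9 of 78 ribosomal genes had a peak in naive cells, 12 at 48 h and 5 at 72 h. The backgrounds were 8.04%, 5.07% and 6.65%. A peak at 48 h but not at 72 h was found in 10 (12.8%, interval 6.32% to 22.3%), against 1.33%. At 48 h, 4 of 21 translation elongation and other TOP genes (19.0%) and 5 of 46 ribosome biogenesis genes (10.9%) had a peak there. So did 5 of 76 mitochondrial ribosomal genes (6.58%) and 0 of 6 further cytosolic ribosome genes. At 48 h but not at 72 h it was 1 of 21, 1 of 46, 1 of 76 and 0 of 6. Among the ribosomal protein genes, those with a peak at 48 h only were Rpl5, Rpl27, Rps12, Rps25 and Rpsa. Those with one in naive cells and at 48 h were Rpl8, Rpl14, Rpl32, Rps10 and Rps15a. Rps19 and Rpl3 had one in all 3 lists, Rpl26, Rps6 and Rps9 at 72 h only, and Rpl28 was among those with one in naive cells only.

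The peaks of the ribosomal protein genes there were narrow and scored low. Widths at 48 h were 100 bp for Rpl5, 148 bp for Rpl27, 174 bp for Rps12, 222 bp for Rps25 and 152 bp for Rpsa. Their scores were 37, 61, 34, 54 and 37, in a list whose minimum is 30 and median 69. The widest was that of Rpl3, with 191 bp in naive cells, 895 bp at 48 h and 124 bp at 72 h. Over the 12 genes the 48 h scores ran from 34 to 67. When peaks under the median score of the list were left out, none of the 12 remained, and when those under the median width were left out, 2 did. The part of the calling limit in these presences and absences was not tested.

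The other windows gave smaller or larger contrasts. From 500 to 2000 bp, 9, 12 and 3 genes had a peak in naive, 48 h and 72 h cells, against 7.09%, 4.47% and 5.93%. From 1 to 5000 bp it was 19, 20 and 12, against 18.1%, 12.02% and 16.1%. In the window between 2 and 4 kb it was 10, 8 and 5, or 12.8%, 10.3% and 6.41%, against 9.19%, 5.83% and 8.12%. A peak at 48 h but not 72 h was found in 10 genes from 500 to 2000 bp (12.8% against 1.16%). It was found in 12 from 1 to 5000 bp (15.4% against 2.57%) and in 5 between 2 and 4 kb (6.41% against 1.19%). On the 5′ side the first 2 kb held a peak in 4, 2 and 1 genes, against 9.37%, 6.01% and 7.21%. There 1 gene (1.28%) had it at 48 h but not 72 h, against 1.96%. From 500 to 2000 bp this last count was 1, from 1 to 5000 bp 2 and between 2 and 4 kb 1. The backgrounds were 1.77%, 2.63% and 0.552%. The 5′ window from 500 to 2000 bp gave 4, 2 and 1 genes, against 8.49%, 5.31% and 6.38%. That from 1 to 5000 bp gave 12, 4 and 5, against 15.8%, 10.3% and 13.01%. Between 2 and 4 kb it was 7, 2 and 3, against 5.53%, 3.16% and 4.63%, and there the naive share of 8.97% was above the background.

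**Figure D5:**
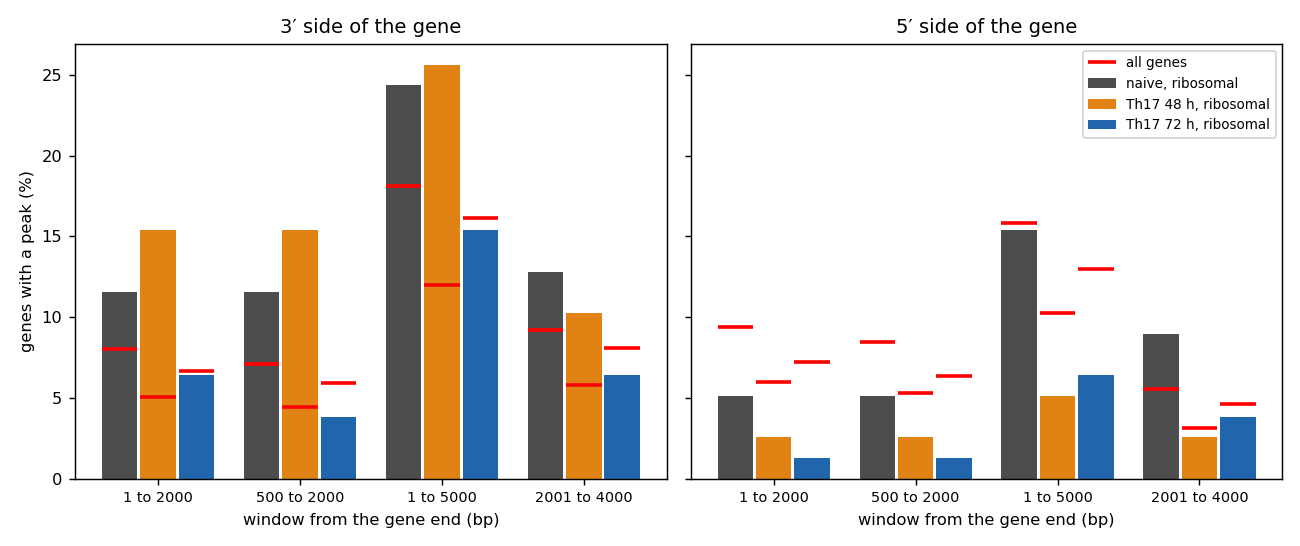
Share of the 78 ribosomal genes with a peak (bars, percent, from 0) in each of the 4 windows on the 3′ and the 5′ side, by condition, with all 10501 genes as red lines; peaks at protein-coding starts are left out. On the 3′ side the 48 h bars stand above the red lines in every window, by the least between 2 and 4 kb (10.3% against 5.83%); on the 5′ side the 48 h bars stand below, while the naive bar between 2 and 4 kb stands above (8.97% against 5.53%).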

How the data were processed

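ATAC-seq peak lists of naive, Th17 48 h and Th17 72 h CD4 T cells were analysed, 1 list for 2 libraries in each condition. Per the submitters' processing notes, MACS2 2.2.6, deepTools, SAMtools 1.9 and Bowtie2 2.3.4.1 were used with the builds GRCm38 and mm10. The labels and files do not state pooling, duplicate handling, the Tn5 shift or the calling threshold. The deposited lists hold peak positions, and those of 48 h and 72 h also hold a whole-number score by the authors, whose scale is not stated; the naive list has none. 1 naive line without values was left out.

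Peaks sharing at least 1 bp were merged, and regions within 2 kb of a gene were assigned to it. Starts came from RefSeq promoters (GRCm38.p6), matched by gene identifier, with a window of 500 bp on each side; 20 of the 87 genes have no listed start, and both gene ends stood in. Shares carry exact Clopper-Pearson 95% intervals, for counting error only. No test between conditions was possible with 1 list each. Overlap and counting code was tested on simulated data. Python 3.11.15, pandas 2.3.3, NumPy 2.4.6 and SciPy 1.17.1 were used.

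Genes named with values were those without a region or start peak, the 10 highest and 5 lowest scores at 72 h, the 5 largest and 5 smallest width ratios, and those with regions away from the start. The genes, lists and rules were chosen with earlier results of these data known. The windows beside the genes, the count of TOP-like stretches at the start base and the printed sequences of Rpl39l and Rpl3l were chosen after the values were seen. Values of a few single genes are not reported here. Alternatives covered peak filters, overlap, windows and gene sets.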

Additional observations from a re-analysis of the deposited data

How the results depend on the processing

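No paired analysis was possible because each condition has 1 peak list and no value per library. Of 149 recomputed values under 22 alternative settings, 99 stayed within 1.5 times the reported count or, for medians and percentages, within the interval, and 50 moved. Of the 50, 45 are counts, and 16 of these lay within the reported interval as shares of their own total. The cause was not tested. Genes with a start peak in all 3 lists stayed within 1.5 times, but fell from 78 to 70 without peaks under the median width, 67 without those under the median score, 75 with 100 bp on each side of the start and 77 with the same number of widest peaks; some genes then had a start peak in only some lists.

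Shares over all regions under these settings are not given, nor are those of all genes for the start peak counts above. The start peak counts above and the region counts in this paragraph thus stand without a background of their own. Without peaks under the median width of their list, 82.5% of regions were in all lists. Gains and losses were 3 of 84 and 11 of 92 from naive to 48 h, and 3 of 90 and 5 of 92 from naive to 72 h. From 48 h to 72 h they were 9 of 90 and 3 of 84. With the same number of widest peaks from each list, 8 of 110 regions were lost from naive to 48 h. From naive to 72 h, 7 of 98 were gained and 19 of 110 lost, and 6 of 98 were gained from 48 h to 72 h. Without peaks under the median score, and with the naive list whole, gains from naive were 0 of 77 at 48 h and 0 of 89 at 72 h. From naive, 53 of 130 regions were lost to 48 h and 41 of 130 to 72 h (31.5%, outside the reported interval). From 48 h to 72 h, 1 of 77 was lost. With gene bodies only, 75.9% of regions were in all lists, and 1 of 85 was gained from naive to 48 h. From naive to 72 h, 7 of 94 were gained and 13 of 100 lost, and 3 of 85 were lost from 48 h to 72 h. With 10 kb on each side, 53.6% were in all lists, gains and losses were 23 of 180 and 61 of 218 from naive to 48 h and 31 of 189 and 60 of 218 from naive to 72 h, and 40 of 189 were gained from 48 h to 72 h; as shares, all but the 61 lay within the reported intervals. With only genes that have a listed start, a setting added after seeing the data, 19 of 97 regions were lost from naive to 72 h, within the interval as a share.

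Among all peaks instead of start peaks, the median score percentile was 75.02 at 48 h and 85.7 at 72 h. On the sense strand alone, ETS, YY1 and SP matches were in 20, 5 and 18 genes, or 29.9%, 7.46% and 26.9%, against 8.95%, 4.16% and 33.6% of all genes, so SP turned from above the background to below it. In canonical genes alone, TATA matches were in 5.

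The counts past the 3′ end were all added after seeing the data. A 5 kb flank gave 19, 20 and 12 genes in naive, 48 h and 72 h cells. The window from 500 bp gave 3 at 72 h (3.85% against 5.93% of all genes). That between 2 and 4 kb gave 5 at 48 h but not 72 h (6.41% against 1.19%). Keeping peaks at other starts gave 18, 20 and 11. Leaving out peaks under the median width left 1, 2 and 0 genes, and 2 at 48 h but not 72 h. The same number of widest peaks left 1 at 72 h. Leaving out peaks under the median score left 0 at 48 h, 0 at 72 h and 0 at 48 h but not 72 h. Genes with a listed start gave 5 of 59 in naive cells, within the interval as a share.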
